A study of Mus musculus with 4 samples.

Results

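The 37 genes described here mark the endothelium, the cell layer that lines blood vessels, or carry the signals by which vessels form. They were listed by name: 30 endothelial markers, and 7 genes of angiogenic signalling, namely the ligands Vegfa, Vegfb, Angpt1, Angpt2 and Apln and the coreceptors Nrp1 and Nrp2. All 37 had at least 1 probe set with a single gene symbol, and 36 of them, Apln aside, were among the 15103 genes bright enough to be tested. The probe set with the highest mean stood for its gene, on the deposited log2 scale.

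The muscle studied was the tibialis cranialis of the hind limb, from 8 male C57Bl/6 mice that were fed a high fat diet from 8 weeks of age onwards. After 4 weeks of feeding, one leg of each mouse was injected with AAV8 ProMyo, an adeno-associated virus that carries the propeptide of myostatin, an inhibitor of muscle growth, and the other leg with saline. Both muscles were collected 10 weeks after the injection, at 22 weeks of age. Each of the 4 arrays carried equal amounts of RNA from 4 animals: ProMyo muscle of animals 1-4, ProMyo muscle of animals 5-8, and saline muscle of the same animals 1-4 and 5-8. The control leg received no empty vector, so the vector and the inhibition of myostatin cannot be told apart. The promoter that drives the propeptide is not given in the sources used here. With 2 pooled arrays per group, the spread between single animals was not measured. Each standard error (SE) below is limma's moderated one, which combines a gene's own spread between pools with the spread of all genes, and so can exceed the gene's own spread.

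As background, muscle fibres and the cells around vessels secrete VEGF and angiopoietin ligands, and endothelial cells carry the receptors for them. VEGF-A acts through the receptor encoded by Kdr to drive endothelial growth and sprouting, while angiopoietin 1 acts through Tek to keep vessels quiet and tight. ETS and SOX transcription factors maintain the set of genes that gives endothelial cells their identity, and the capillary bed of a muscle supplies oxygen and lipid to its fibres.

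One array stood apart from the others. The upper quartile of all its probe sets was 2.97 in the saline array of animals 5-8, against 3.15 to 3.20 in the other 3, while its spiked-in controls averaged 11.1 against 10.1 to 10.2. The 27 Bacillus control probe sets, for which no target was expected, reached 0.57 to 0.99 on the single arrays and marked the background level. All 8 defining markers of endothelium (Pecam1, Cdh5, Kdr, Tie1, Emcn, Cldn5, Egfl7 and Esam) lay above these controls on every array, and 35 of the 37 genes did so. The exceptions were Apln, which lay within them on all arrays, and Rasip1 on the saline array of animals 5-8. In the whole muscle, fewer endothelial cells and less RNA per endothelial cell cannot be told apart.

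**Figure D1:**
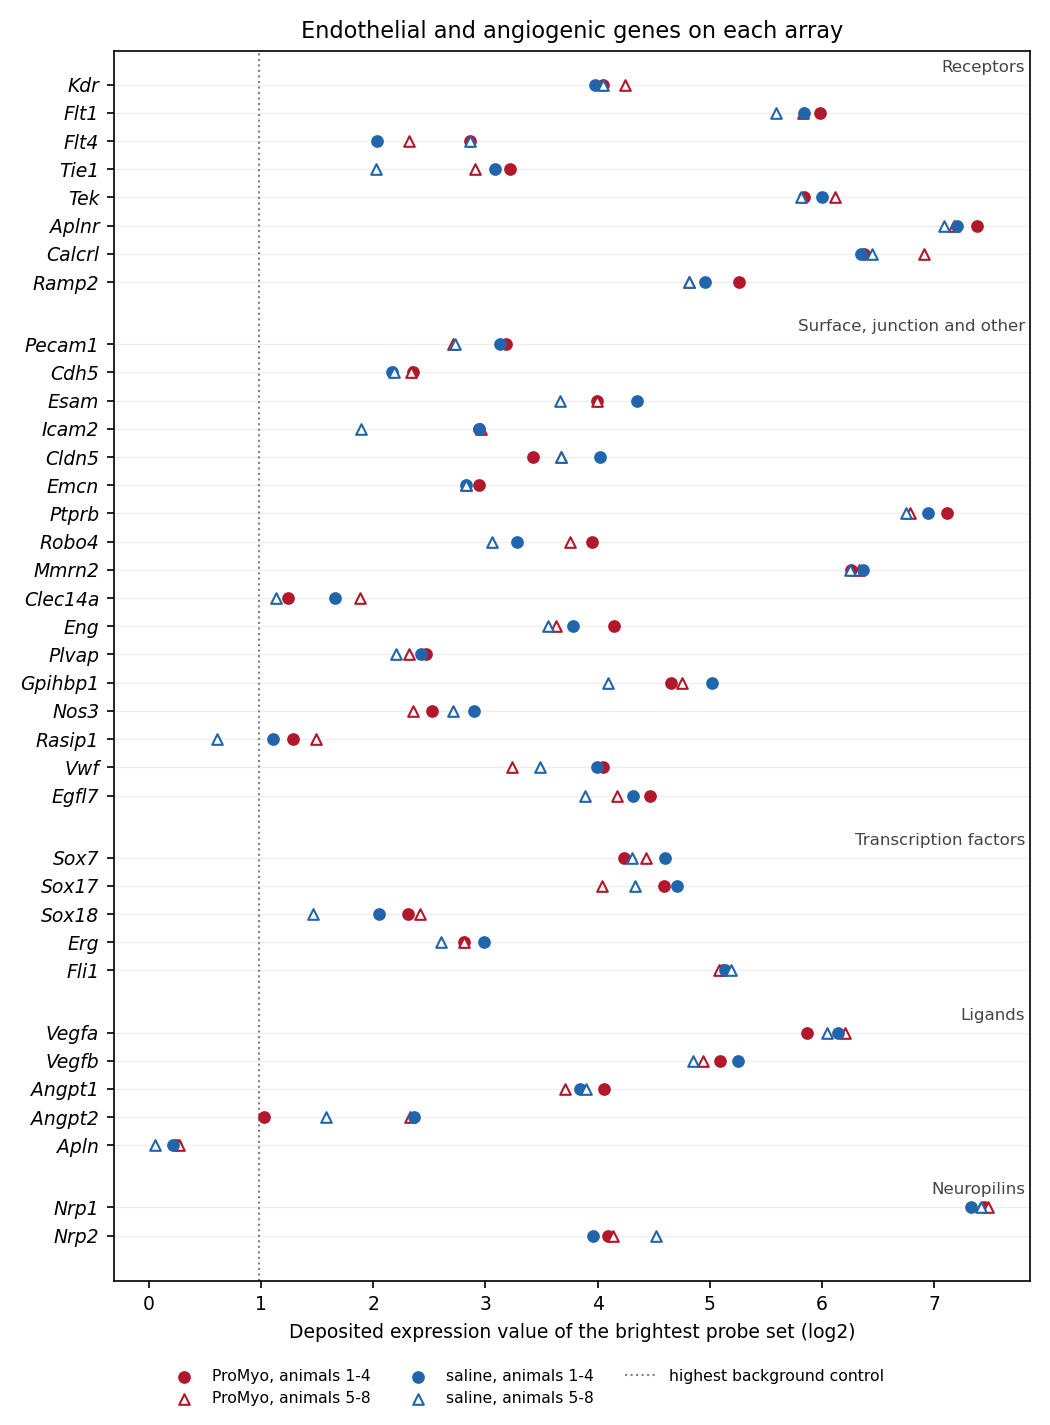
Deposited log2 value (horizontal axis) of the brightest probe set of each gene, with 1 point per array: red for ProMyo and blue for saline muscle, filled circles for animals 1-4 and open triangles for animals 5-8; the dotted line is the highest background control, 0.99. For most genes the 4 points overlap between treatments, and the blue triangle is often the one furthest left, as for Tie1 at 2.02 and Icam2 at 1.89.

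The comparison of both legs asks what AAV8 ProMyo changes in the vessel genes of muscle under a high fat diet. None of the 36 genes passed the test (limma, 0 of 36 with an adjusted p under 0.05, smallest adjusted p = 0.82), as none of all 15103 genes did, a background of 0.0%. At an unadjusted p under 0.05 there was 1 of the 36 genes, or 2.78%, against 5.79% of all genes. The 30 endothelial markers had a median difference of 0.13 on the log2 scale (higher in ProMyo muscle), beside a median of 0.01 over all genes tested. Without the saline array of animals 5-8 the marker median was -0.0093, and without the ProMyo array of animals 1-4 it was 0.02. Without the ProMyo array of animals 5-8 it was 0.17, and without the saline array of animals 1-4 it was 0.20. The medians of all genes, in the same order, were -0.02, -0.0059, 0.03 and 0.06. The 6 measured ligands and neuropilins had a median of -0.04. For 26 of the 36 genes the standard error exceeded the size of the difference, and with the legs paired by pool it did so for 23. The SEs below are unpaired unless stated.

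In animals 1-4, 21 of the 36 genes, or 58.3%, were higher in the ProMyo leg, against 48.0% of all genes. In animals 5-8, 26 genes, or 72.2%, were, against 54.4% of all genes. Of the 36 genes 15, or 41.7%, stood above saline in both pools, where 29.0% of all genes did. Lower in both pools were 3 genes (Nos3, Sox17 and Fli1), or 8.33%, where 24.0% of all genes were. Opposite directions in the pools were found for 16 genes, or 44.4%, close to the 42.6% of all genes, and Emcn and Cldn5 had exactly the same value in both legs of animals 5-8. Both counts moved with the saline array of animals 5-8: without it, 9 of the 36 genes were higher in both ProMyo arrays than in the remaining saline array and 11 were lower, where 29.5% of all genes were higher and 36.9% lower. Without the ProMyo array of animals 1-4, the other one was below both saline arrays for 6 genes and above both for 11. Of all genes 32.0% and 30.5% were. Without the ProMyo array of animals 5-8, the counts were 6 and 17, with 27.3% and 35.2% of all genes. Without the saline array of animals 1-4, 3 genes were lower in both ProMyo arrays than in the other saline array and 21 higher. The shares of all genes were 29.7% and 42.7%. Quantile normalization gave 11 of the 36 genes higher in both pools and 7 lower, with 25.1% and 29.8% of all genes. Without the saline array of animals 5-8 and after quantile normalization, the shares of all genes moved in the same directions as the members' counts. The exception was the share higher without that saline array, which stayed near 29.0%. The groups did not overlap for 5 genes with both ProMyo arrays above both saline arrays (Cdh5, Robo4, Sox18, Rasip1 and Nrp1), or 13.9% against a background of 17.8%. The opposite separation was found for 2 genes (Nos3 and Fli1), or 5.56% against 15.7%.

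Which array was lowest differed between the markers and the ligands. The saline array of animals 5-8 held the lowest of the 4 values for 18 of the 30 endothelial markers, or 60.0%, where it did so for 35.5% of all genes. For the 6 ligands and neuropilins it was the lowest for 1. It lay below the other saline array for 27 of the 36 genes and for 60.2% of all genes. The median deviation of the markers from their mean over the arrays was -0.15 on that array, 0.06 on the saline array of animals 1-4, 0.14 on the ProMyo array of animals 1-4 and -0.0018 on the ProMyo array of animals 5-8. Over all genes tested the same array stood at -0.05. This array also had the lowest upper quartile, 2.97, and the part of that in the marker values was not tested. Quantile normalization, which gives all arrays the same distribution, left a marker median of 0.054, with -0.02 for all genes.

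**Figure D2:**
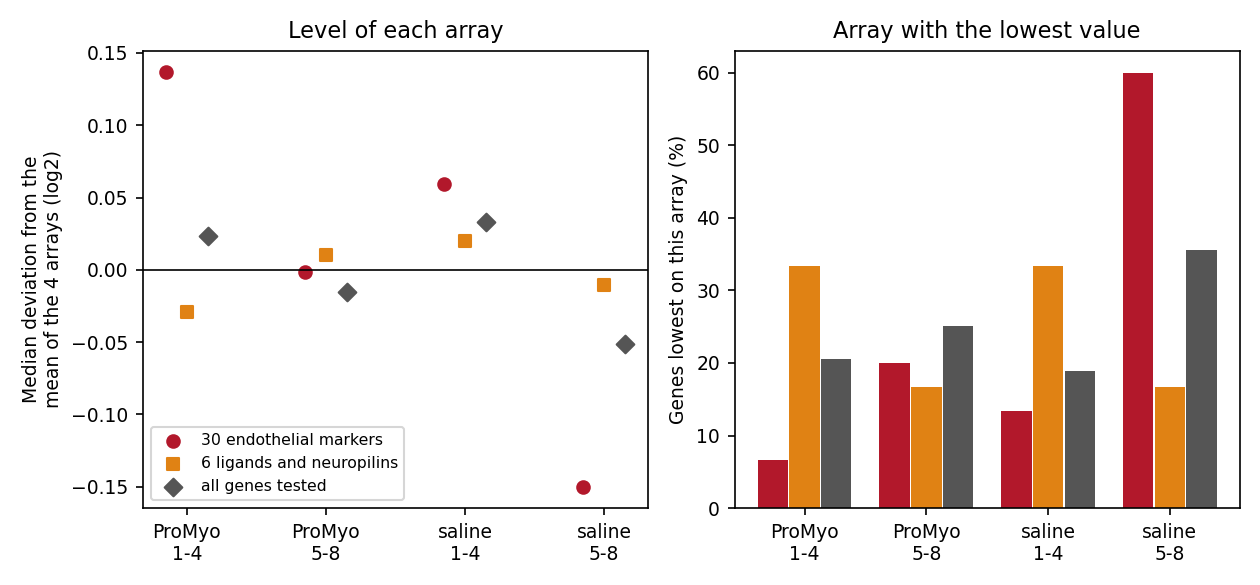
Left, the median deviation (log2) of the 30 endothelial markers, the 6 ligands and neuropilins and all genes tested from each gene's mean over the 4 arrays; right, the percentage of genes in each set whose lowest value was on the array named below the bars. The saline array of animals 5-8 had the lowest marker median, -0.15, and the lowest value for 60.0% of the markers.

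Of 8 receptor genes of endothelial cells, 6 had positive differences in both pools and 0 had negative ones in both, where 29.0% and 24.0% of all genes did; the median was 0.15. The groups did not separate for any of the 8, the SE exceeded the difference for 5, and the saline array of animals 5-8 was the lowest for 5. Kdr, the main signalling receptor for VEGF-A, read 4.05 and 4.24 on the ProMyo arrays of animals 1-4 and 5-8 and 3.98 and 4.05 on the saline arrays. Its groups touched at 4.05, and the difference of 0.13 ± 0.17 (log2 ± SE, n = 2 pools per group) was smaller than its error. Flt1, a VEGF receptor that also occurs in a soluble form that traps the ligand, read 5.98 and 5.83 in ProMyo and 5.84 and 5.60 in saline muscle. Here the higher saline array lay between the ProMyo arrays, and the difference was 0.19 ± 0.18. None of its other probe sets was higher in both pools. The one ranked 2 by brightness gave -0.20 in animals 1-4 and 0.45 in animals 5-8, with a mean of 0.12. The one ranked 3 gave -0.06 in animals 1-4 and 0.33 in animals 5-8, with a mean of 0.13. The one ranked 4 gave -0.30 and -0.47, with a mean of -0.38. The mean over all 4 probe sets was 0.02, and which transcript each one detects was not analysed here.

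Tie1, an orphan partner of the angiopoietin receptor, read 3.22 and 2.91 in the ProMyo leg, and 3.09 and 2.02 in the saline leg. The last value stood alone: the difference was 0.13 in animals 1-4 and 0.89 in animals 5-8, and without the saline array of animals 5-8 the mean difference of 0.51 ± 0.38 (SE 0.24 when paired) became -0.02, and without the saline array of animals 1-4 it became 1.04. Tek, the angiopoietin receptor itself, read 5.84 and 6.12 against 6.00 and 5.81, with opposite directions in the pools. Flt4, the VEGF-C receptor of lymphatic and sprouting vessels, also parted, with 0.84 in animals 1-4 and -0.55 in animals 5-8. Among the peptide receptors, Aplnr (apelin) differed by 0.14 ± 0.17, and Calcrl and Ramp2, which together form the adrenomedullin receptor, by 0.25 ± 0.23 and 0.15 ± 0.21. The Calcrl difference came from animals 5-8, with 0.47 against 0.02 in animals 1-4, and that of Ramp2 from animals 1-4, with 0.30 against 0.0039.

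Among surface, junction and secreted proteins, the largest difference was at Robo4, a guidance receptor of endothelium that stabilises vessels. Robo4 read 3.95 and 3.76 on the ProMyo arrays and 3.28 and 3.06 on the saline arrays. Both ProMyo arrays lay above both saline arrays, and the difference was close to equal in the pools, 0.67 in animals 1-4 and 0.70 in animals 5-8. This put ProMyo muscle 1.61-fold above saline muscle, with 0.69 ± 0.18 on the log2 scale (limma, adjusted p = 0.82). Robo4 was the 1 gene of the 36 at least 1.5-fold higher in both pools, which is 2.78% of them, where 1.03% of all genes were; at least 1.5-fold lower in both pools were 0 of the 36 genes and 0.563% of all genes. Its difference lay between 0.58 and 0.80 when single arrays were left out and was 0.61 after quantile normalization. Only 1 probe set read Robo4.

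Rasip1, a protein that opens the vessel lumen through small GTPases, read 1.28 and 1.49 in ProMyo and 1.11 and 0.61 in saline muscle. The groups did not overlap, but the saline value of 0.61 was no brighter than the background controls, which leaves the size of its difference, 0.53 ± 0.23, uncertain. Without that array it was 0.28. Icam2, an adhesion molecule of resting endothelium, showed the same array most plainly: 2.94, 2.96 and 2.95 on the other 3 arrays, ProMyo and saline alike, and 1.89 on the saline array of animals 5-8. Its mean difference of 0.54 ± 0.36 was 0.0057 without that array and 1.06 without the saline array of animals 1-4.

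The stretches before the transcription starts of Robo4, Rasip1 and Tie1 are shown because these genes had the largest differences among the 19 of the 37 genes with an entry in the RefSeq promoter table (build GRCm38.p6). Capitals mark the ETS motif, searched as CCGGAA or CAGGAA on both strands. Each stretch runs 5′ to 3′ along the gene's strand and ends before the first annotated base of the gene.
Robo4, chr9:37401722-37401901, plus strand: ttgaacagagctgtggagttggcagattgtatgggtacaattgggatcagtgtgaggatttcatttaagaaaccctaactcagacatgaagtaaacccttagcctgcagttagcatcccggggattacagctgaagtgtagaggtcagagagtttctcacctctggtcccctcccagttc
Rasip1, chr7:45627287-45627536, plus strand: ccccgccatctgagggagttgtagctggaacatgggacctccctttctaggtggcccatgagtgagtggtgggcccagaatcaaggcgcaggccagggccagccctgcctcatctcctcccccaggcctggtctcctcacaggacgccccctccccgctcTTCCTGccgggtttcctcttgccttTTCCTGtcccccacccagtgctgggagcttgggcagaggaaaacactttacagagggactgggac
Tie1, chr4:118489850-118490099, minus strand: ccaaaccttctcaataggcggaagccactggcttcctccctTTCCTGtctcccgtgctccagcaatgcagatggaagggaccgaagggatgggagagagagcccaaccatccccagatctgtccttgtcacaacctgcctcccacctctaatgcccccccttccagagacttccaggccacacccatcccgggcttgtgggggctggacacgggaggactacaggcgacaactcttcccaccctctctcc
In the 250 bases before each listed start, 14 of 24 windows of the genes, or 58.3%, held the ETS motif, and 35.1% of all 32851 windows did. Some genes have several listed starts, and these windows are not independent. The single Robo4 match lay in the 70 bases left out above because they fall within the annotated gene. A SOX motif, searched as ACAANG on both strands, was in 33.3% of the windows of these genes and in 36.3% of all windows. A match describes letters and not a bound site.

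Of the defining markers, Pecam1 and Emcn were close to level between the legs, while Cdh5 was slightly higher in ProMyo muscle. Pecam1 (CD31, an adhesion molecule at endothelial contacts) read 3.18 and 2.71 in ProMyo and 3.13 and 2.73 in saline muscle, so that the arrays of animals 1-4 were high and those of animals 5-8 low in both legs. Its difference was 0.02 ± 0.25. Cdh5, the cadherin of endothelial junctions, read 2.36 and 2.34 against 2.16 and 2.19, without overlap and with little spread within either group. The difference of 0.18 ± 0.15 had the same sign in both pools and lay between 0.16 and 0.19 without single arrays. Emcn, a sialomucin of capillaries and veins, had 1 value, 2.83, on 3 arrays and 2.94 on the ProMyo array of animals 1-4.

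Junction genes did not share a direction. Cldn5, a tight junction protein, read 3.43 and 3.67 in ProMyo and 4.02 and 3.67 in saline muscle, a difference of -0.30 ± 0.20 that came from animals 1-4 alone. Esam, another junction adhesion molecule, stood at -0.36 in animals 1-4 and 0.33 in animals 5-8. Ptprb, the phosphatase that acts on Tek and Cdh5, differed by 0.10 ± 0.19 and Mmrn2, a matrix protein of vessels and ligand of Clec14a, by -0.01 ± 0.16. Clec14a itself parted between the pools, with -0.42 and 0.75, and its second probe set parted the opposite way, with 0.62 and -0.18.

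Nos3, the endothelial nitric oxide synthase, was the member furthest down. It read 2.53 and 2.36 on the ProMyo arrays against 2.90 and 2.71 on the saline arrays. The saline arrays were the higher ones throughout, by pool differences of -0.37 in animals 1-4 and -0.36 in animals 5-8, with a mean difference of -0.37 ± 0.17 (limma, adjusted p = 0.83). It was between -0.46 and -0.27 without single arrays, and only 1 probe set read this gene. Gpihbp1, which carries lipoprotein lipase to the capillary lumen, parted with -0.36 and 0.65, reading 4.65 and 4.75 on the ProMyo arrays against 5.02 and 4.10 on the saline arrays. Eng, a coreceptor for BMP9, differed by 0.22 ± 0.23, the secreted Egfl7 by 0.22 ± 0.22, Plvap, of the diaphragms of fenestrated vessels, by 0.08 ± 0.17, and Vwf, the clotting glycoprotein of endothelial storage granules, by -0.10 ± 0.33. Of these only Vwf had opposite signs in the pools.

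**Figure D3:**
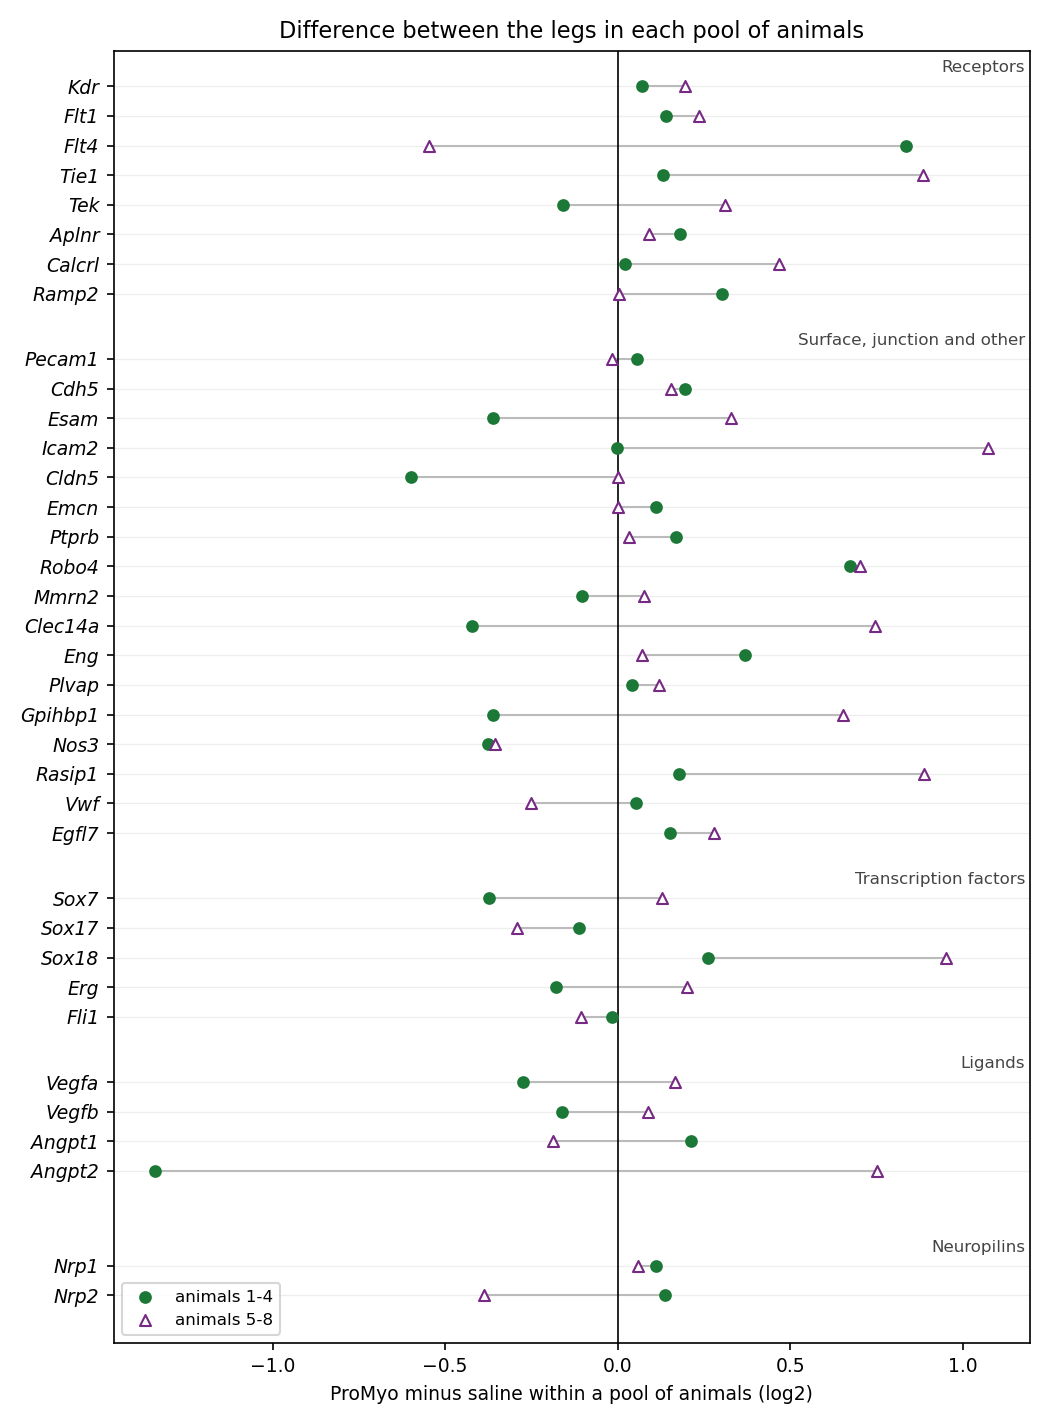
Difference between the legs, ProMyo minus saline (log2, horizontal axis), of each tested gene in animals 1-4 (filled circles) and animals 5-8 (open triangles), joined by a line. Robo4 at 0.67 and 0.70 and Nos3 at -0.37 and -0.36 agree between the pools, while Angpt2 at -1.34 and 0.75 and Flt4 at 0.84 and -0.55 lie on opposite sides of 0.

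The 5 transcription factors had a median of -0.06, with 1 gene higher and 2 lower in both pools. Sox18, a SOX factor of arterial and lymphatic development, read 2.31 and 2.42 in the ProMyo leg, against 2.05 and 1.47 in the saline leg. The groups did not overlap, and the difference was 0.61 ± 0.24, with 0.26 in animals 1-4 and 0.95 in animals 5-8 (limma, adjusted p = 0.82). Without the saline array of animals 5-8 it was 0.31. The related factors Sox17 and Sox7 stood at -0.20 ± 0.26 and -0.12 ± 0.19, Sox17 lower in both pools and Sox7 lower in animals 1-4 only. The ETS factors Fli1 and Erg were nearly level, at -0.06 ± 0.15 and 0.01 ± 0.19; Fli1 read 5.12 and 5.09 against 5.14 and 5.19, a separation without overlap. The Fli1 difference was below its moderated SE, while its SDs within the groups were 0.03 for ProMyo and 0.04 for saline.

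Ligands showed no common direction: all 4 that could be tested had opposite signs in the pools. Vegfa, the main growth factor for vessels, which muscle fibres also make, read 5.87 and 6.21 in ProMyo and 6.14 and 6.04 in saline muscle. The saline arrays lay between the ProMyo arrays, and the difference was -0.05 ± 0.19. Vegfb, abundant in oxidative tissue, differed by -0.04 ± 0.20, and Angpt1, the activating ligand of Tek, by 0.01 ± 0.19. Angpt2, a context-dependent antagonist of Angpt1 that endothelial cells release, spread most of all 36 genes, from 1.03 and 2.33 in ProMyo to 2.37 and 1.58 in saline muscle. Its differences of -1.34 and 0.75 pointed in opposite directions, and the ProMyo value of 1.03 was near the background level. Apln, the ligand of Aplnr, read 0.06 to 0.27 on all arrays, within the background controls, so no difference is given.

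The neuropilins, coreceptors for VEGF and semaphorins, parted from each other on their brightest probe sets, but not with the mean of the probe sets. With the mean of the probe sets, Nrp1 stood at 0.10 and Nrp2 at 0.055. Nrp1 read 7.44 and 7.48 in ProMyo and 7.33 and 7.42 in saline muscle, without overlap but with a difference of 0.09 ± 0.16. Its probe sets ranked 2 and 3 had opposite signs in animals 1-4 and 5-8, with -0.10 and 0.56, and -0.71 and 0.48. The one ranked 4 gave 0.28 and 0.06. Nrp2, of venous and lymphatic endothelium, read 4.09 and 4.14 against 3.96 and 4.52, with the saline array of animals 5-8 this time the highest. Its probe sets ranked 2, 3 and 4 gave mean differences of 0.27, 0.16 and -0.09. Those of Nrp1 at the same ranks were 0.23, -0.11 and 0.17.

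A second probe set above the filter on dim signals was present for 17 of the 36 genes, and it had the same sign as the brightest one for 12 and the opposite sign for 5 (Sox7, Mmrn2, Vegfa, Angpt1 and Nrp2). The second Vegfa probe set differed by 0.03 and that of Angpt1 by -0.12, where the brightest ones gave -0.05 and 0.01. For Sox7 the values were 0.0076 and -0.12, for Mmrn2 0.06 and -0.01, and for Nrp2 0.27 and -0.12. The filter lies below the background controls, so some of these second probe sets were at background level. Calcrl's was above the controls on 1 array, and those of Sox17, Erg, Angpt1 and Angpt2 on 3. Their signs are uncertain.

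**Figure D4:**
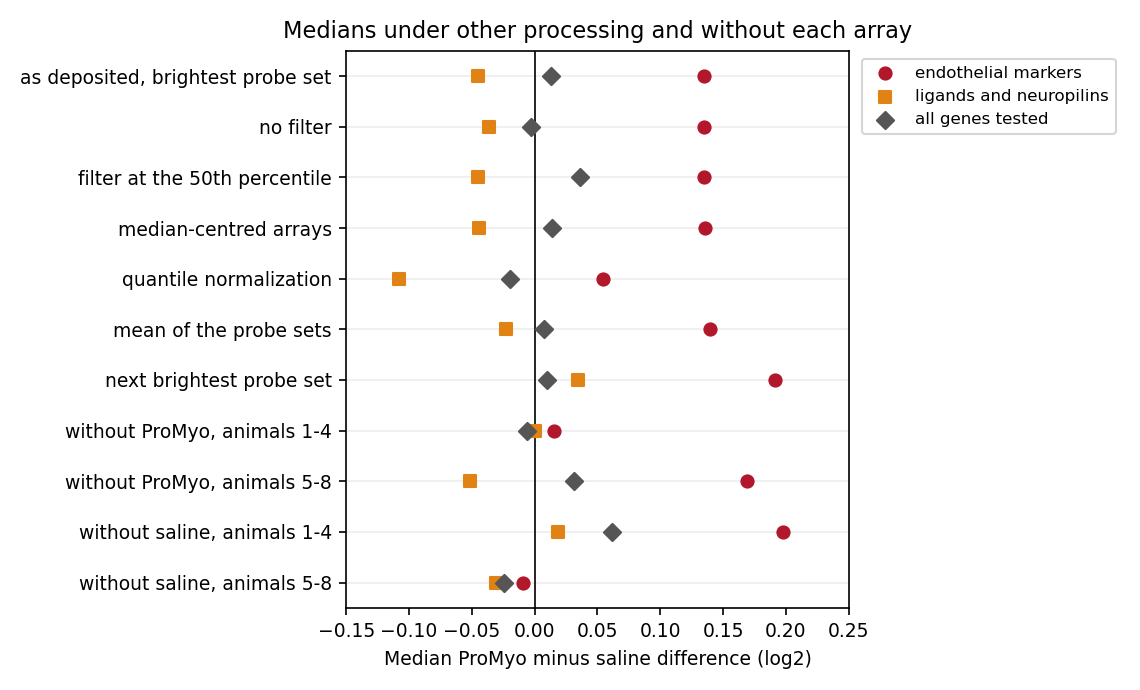
Median difference (log2) of the endothelial markers, the ligands and neuropilins and all genes tested, under the processing named at the left or without the array named there; points have no error bars. The marker median was 0.13 as deposited, 0.05 after quantile normalization and -0.0093 without the saline array of animals 5-8.

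Genes of the same pathways outside the 37 were taken from further lists, and no member of any of them passed the test (limma, smallest adjusted p = 0.82). For all counts of these lists, the shares of all genes are 29.0% higher and 24.0% lower in both pools. Among 18 other growth factor and guidance genes of vessels, 6 had positive differences in both pools and 7 negative ones, with a median of -0.04. Sema3f, a semaphorin that signals through Nrp2 and repels endothelial cells, read at most 1.33 on the ProMyo arrays, and 1.89 and 2.07 on the saline arrays. The groups did not overlap, with -0.69 in animals 1-4, -0.74 in animals 5-8 and a mean of -0.72 ± 0.17, so that saline muscle was 1.64-fold higher. The lymphatic growth factor Vegfc stood at -0.31 ± 0.20, and the semaphorin receptor Plxnd1 and the growth factor Fgf1 at 0.23 ± 0.15 and 0.28 ± 0.19.

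Of 16 Notch and arteriovenous genes, 3 were higher and 4 lower in both pools. Efna1, an ephrin ligand, differed by 0.69 ± 0.18, from 2.36 and 2.45 in saline to 3.24 and 2.95 in ProMyo muscle. Hey2, a Notch target of arterial endothelium, differed by 0.55 ± 0.20, Jag1, a Notch ligand, by 0.29 ± 0.16 and Hes1, another Notch target, by -0.44 ± 0.20. Of further endothelial transcription factors 7 of 17 were higher in both pools and 3 lower, with Lmo2 at -0.53 ± 0.18 and its partner Tal1 at 0.50 ± 0.26. Hhex stood at -0.59 ± 0.36 and Foxc2, whose saline values lay within the background controls, at 0.31 ± 0.19.

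Genes of oxygen sensing and targets of the hypoxia factor HIF, which drives Vegfa, numbered 20, of which 3 were higher and 8 lower in both pools, with a median of -0.07. Pdk1, a brake on pyruvate oxidation, stood at 0.43 ± 0.19, P4ha1, a collagen hydroxylase, at -0.35 ± 0.19, Ndrg1 at -0.36 ± 0.20 and the mitochondrial protein Higd1a at -0.26 ± 0.16. Inhibitors of vessel growth had a median of -0.14, with 1 of 10 higher and 5 lower in both pools. The named ones were Spry4, a brake on receptor signalling, at -0.46 ± 0.19, Col18a1, the source of endostatin, at -0.32 ± 0.16, Thbs2, a thrombospondin, at -0.30 ± 0.18 and Sparc at -0.17 ± 0.15.

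Lymphatic markers were higher in both pools for 2 of 5 and lower for 1. Lyve1, a hyaluronan receptor of lymphatic vessels and of some macrophages, read 2.38 and 2.85 in ProMyo and 1.83 and 2.05 in saline muscle, without overlap and with a difference of 0.67 ± 0.22. Prox1, the factor that specifies lymphatic endothelium and is also made in muscle fibres, stood at -0.25 ± 0.18, Mmrn1 at 0.12 ± 0.24 and Pdpn at 0.07 ± 0.16. Mmrn1 lay within the background controls on the ProMyo array of animals 1-4 and the saline array of animals 5-8.

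Markers of other cells in muscle moved as follows. Pericyte and smooth muscle markers were higher in both pools for 5 of 14 and lower for 2, with a median of 0.03 and summed log2 levels of 68.6 to 69.2 in ProMyo and 66.3 to 69.5 in saline muscle. Within that list Tagln stood at 0.78 ± 0.27, Higd1b, a pericyte marker, at 0.42 ± 0.15, Acta2 at -0.46 ± 0.21 and Pdgfrb at 0.19 ± 0.16. Of 15 fibroblast markers 11 were lower and 3 higher in both pools, with a median of -0.19 and summed levels of 84.6 to 84.7 in ProMyo against 87.8 to 88.0 in saline muscle; Col1a2 stood at -0.78 ± 0.15, Pi16 at -0.96 ± 0.20, Col1a1 at -0.68 ± 0.18 and Lum at 0.63 ± 0.25. Of these fibroblast markers 9, or 60.0%, lay below saline without overlap and 1 above, where 15.7% and 17.8% of all genes did. Fibre markers were higher in both pools for 10 of 15 and lower in both for 4. Without overlap, 8 fibre markers, or 53.3%, were higher and 3, or 20.0%, lower, against 17.8% and 15.7% of all genes. Their median was 0.13, equal at this precision to that of the endothelial markers, and the 4 with the smallest p were Myl2 at -1.85 ± 0.65, Myh2 at -0.39 ± 0.19, Tnnc1 at -0.24 ± 0.16 and Mylpf at 0.21 ± 0.15. Of 16 leukocyte markers 3 were higher and 6 lower in both pools; their median was -0.05, with summed levels of 45.7 to 46.2 against 47.1 in both saline arrays, and C1qb, Mrc1, Cd3e and Cd163 at -0.48 ± 0.17, -0.45 ± 0.17, 0.59 ± 0.26 and 0.37 ± 0.19. Of the markers of other cells, Hba-a1 of red blood cells lay within the background controls on all arrays. Cd3e lay within them on both saline arrays, which leaves the size of its difference uncertain. The 3' minus 5' probe set difference of Gapdh, which rises as RNA is degraded, was 0.58 and 0.74 on the log2 scale in ProMyo and 0.90 and 0.81 in saline muscle. The part of these in the differences of the endothelial genes was not tested.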

How the data were processed

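Each array carried RNA pooled from 4 animals, labelled with Nugen kits. The deposited log2 values come 1 per probe set. Per the submitters' processing notes the authors used RMA and Affymetrix Expression Console, with no version given in those notes. The log base is not stated. It was read from the range, -0.45 to 13.2, and array medians of 1.06 to 1.11 are low for RMA, so a further scale step is possible and folds hold on the deposited scale. Of 45101 probe sets, 34945 carried 1 gene symbol and were used; 932 carried several, and 9224 carried none or were array controls. Symbols were checked in RefSeq (GRCm38.p6): 34741 matched by gene identifier and 0 changed. A gene was its brightest probe set, and those with a mean below the 25th percentile of all probe sets (0.45) were left out. Arrays have no read depth, and their number limits the precision: the median standard error was 0.19 over all genes and 0.20 over the 36 genes.

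ProMyo was compared with saline on all 4 arrays in limma 3.58.1 in R 4.3.3 (lmFit, eBayes without trend, 2 residual degrees of freedom), with Benjamini-Hochberg adjustment over all 15103 genes and a threshold of 0.05. Lists were described by counts and medians, without a test. The script was tested on simulated data. Both legs come from the same animals, so the pools pair the arrays; across genes, same-numbered arrays deviated together from their groups with r = 0.16. The members and all lists were chosen with earlier results of these data known. Named were every member and, in each other list, up to 4 genes with the smallest p. Alternatives were a replicate block, 2 other filters, 2 other normalizations, other probe sets, a variance trend and leaving out each array.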

Additional observations from a re-analysis of the deposited data

How the results depend on the processing

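With the pools as a replicate block, limma called 0 genes (1039 at an unadjusted p under 0.05, against 874 without the block), as it did under all 12 alternatives, and no call of a member changed; the smallest adjusted p of a member was 0.68 with the block and 0.46 to 1.0 without single arrays. After quantile normalization the marker median was 0.054 and 7 members were lower in both pools. With the next brightest probe set, available for 17 members, the median of the ligands and neuropilins was 0.034, 0 members were lower and 5 higher in both pools, fewer genes being measured. Without single arrays the marker median ran from -0.0093 to 0.20, the count of members lower from 3 to 11 and of members higher from 9 to 21. The lowest median, most lower and fewest higher came without the saline 5-8 array. The sign of 9, 6, 8 and 8 members changed without ProMyo 1-4, ProMyo 5-8, saline 1-4 and saline 5-8, and of 4 after quantile normalization. With a lone array in a group, that array is assumed to vary like the others. Signal over background limits Apln and Rasip1.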

Other observations

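Of 13 genes that handle lipid and metabolites in capillaries, 3 were higher and 2 lower in both pools, with a median of 0.0076, and none passed the test (limma). Lpl, the lipoprotein lipase that Gpihbp1 anchors, stood at 0.25 ± 0.16 (log2 ± SE, n = 2 pools per group), the fatty acid carrier Cd36 at 0.19 ± 0.16, the carbonic anhydrase Car4 at -0.30 ± 0.41 and the glucose carrier Slc2a1 at -0.17 ± 0.26. Regulators of the PGC-1 family and their partners, which can induce Vegfa in muscle, had a median of 0.06, with 3 of 7 higher in both pools and 1 lower. Ppargc1a read 7.01 and 7.35 in ProMyo and 6.94 and 7.09 in saline muscle, so that the groups overlapped, and its nuclear receptor partners Esrrg and Esrra stood at 0.29 ± 0.17 and -0.35 ± 0.21. Ppargc1b stood at 0.31 ± 0.31.

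In the signalling chain of BMP9 and BMP10, which act on endothelium through Eng and Acvrl1, 3 of 8 genes were higher in both pools and 1 lower. Id1, a target of this chain, read 2.78 and 1.68 in ProMyo and 2.00 and 0.85 in saline muscle. The arrays of animals 1-4 were the higher ones in both legs. The difference was near equal in the pools, 0.78 and 0.83, so that the unpaired error of 0.52 reflects the gap between pools. However, the saline value of 0.85 lay within the background controls, which leaves the size of the difference in animals 5-8 uncertain. Id3 stood at 0.33 ± 0.23, Smad5 at -0.21 ± 0.18 and Acvrl1 at -0.24 ± 0.22. Basement membrane genes of vessels were higher in both pools for 3 of 9 and lower for 2, with the laminin chain Lama4 at 0.41 ± 0.20, Lamb1 at 0.20 ± 0.18, Lamc1 at -0.15 ± 0.16 and the collagen chain Col4a2 at -0.18 ± 0.16. Over 5 measured fat cell markers the median was -0.46, but the pools differed, with 0.06 in animals 1-4 and -0.69 in animals 5-8, and 3 of the 5 genes had opposite signs in the pools. The 5 Schwann cell markers had a median of -0.14, from 0.03 in animals 1-4 and -0.34 in animals 5-8, also with 3 of opposite sign. The named genes were Cidea at 0.55 ± 0.23, Retn at -0.46 ± 0.27, Adipoq at -0.60 ± 0.43, Pparg at -0.47 ± 0.35, Mbp at -0.76 ± 0.21, Mal at -0.31 ± 0.15, Pmp22 at -0.14 ± 0.17 and S100b at -0.14 ± 0.22. Blood cell markers had 3 measured genes, Ppbp at -0.46 ± 0.28, Alas2 at -0.17 ± 0.18 and Pf4 at -0.10 ± 0.18. On the saline array of animals 5-8, Cidea and Alas2 lay within the background controls. Alas2 also did so on the ProMyo array of animals 1-4.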
